A study of Mus musculus with 8 samples.

Results

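The 9 genes described here belong to the programme of interneurons born in the medial ganglionic eminence (MGE), the neighbour of the lateral ganglionic eminence (LGE). They were chosen by symbol and by role. No measured value is in the rule, but the choice was made with earlier results of these data known. The factors are Nkx2-1, Sox6, Satb1 and Maf, the neuropeptide and enzyme genes are Sst, Npy and Nos1, and the migration receptors are Cxcr4 and Ackr3. All 9 were found among the 15705 genes of the deposited table, and all 9 passed the filter on low values. Poly(A) RNA was measured in the dissected LGE of mouse embryos at E18.5, with 4 libraries per group. Control embryos had the genotype Isl1 flx/flx and no Cre. Embryos of the conditional knockout (cKO) were Dlx1-Cre; Isl1 flx/flx, so the floxed Isl1 alleles were common to both groups and the presence of Cre cannot be told apart from the loss of Isl1. Dlx1-Cre acts where Dlx1 is expressed, which in the forebrain is the subpallium, the MGE included. The series' design text calls the embryos littermates, and which litter each came from, and its sex, is not given.

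The LIM-homeodomain protein Isl1 controls transcription in neurons of the ventral forebrain. The MGE supplies the cortex with interneurons that express somatostatin or parvalbumin, and it supplies the striatum with interneurons that stay local, among them those that co-express somatostatin, neuropeptide Y and nitric oxide synthase. In this lineage Nkx2-1 specifies the progenitors and switches on Lhx6, and Sox6, Satb1 and Maf act in the neurons after they leave the cell cycle. Migrating interneurons follow the chemokine Cxcl12. Cxcr4 is its signalling receptor, and Ackr3 binds and internalises it, which limits how much of the ligand stays available.

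Promoter sequences are shown for 2 peptide genes, whose mean values were lower in the cKO, and for the receptor pair, of which Cxcr4 fell. Each was read from the window of 250 bases before the RefSeq start, in the RefSeq promoter table of build GRCm38.p6, which held 8 of the 9 members. The starts of RefSeq and GENCODE were the same for Npy and Ackr3, and that of Cxcr4 was 6 bases further upstream in RefSeq. For Sst the GENCODE gene begins 114 bases upstream of the RefSeq start, so only the 136 bases before both starts are printed. Capitals mark matches, on either strand, to letters searched by script. These were the cyclic AMP response element TGACGTCA, the TATA box TATAAA, the NK2 homeodomain core TNAAGTG, the LIM-homeodomain core TAATTA, the ISL1 core CTAATG and the MAF half-site TGCTGAC. Overlapping matches run together.
Sst, chr16:23890959-23891094, minus strand: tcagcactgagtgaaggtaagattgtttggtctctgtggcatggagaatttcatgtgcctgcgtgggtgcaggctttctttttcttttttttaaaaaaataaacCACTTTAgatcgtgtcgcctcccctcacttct
Npy, chr6:49822460-49822709, plus strand: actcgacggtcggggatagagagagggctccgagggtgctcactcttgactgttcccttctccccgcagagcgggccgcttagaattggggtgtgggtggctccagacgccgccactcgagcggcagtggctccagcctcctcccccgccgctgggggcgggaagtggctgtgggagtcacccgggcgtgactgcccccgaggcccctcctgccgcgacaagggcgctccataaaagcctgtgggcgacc
Cxcr4, chr1:128592300-128592549, minus strand: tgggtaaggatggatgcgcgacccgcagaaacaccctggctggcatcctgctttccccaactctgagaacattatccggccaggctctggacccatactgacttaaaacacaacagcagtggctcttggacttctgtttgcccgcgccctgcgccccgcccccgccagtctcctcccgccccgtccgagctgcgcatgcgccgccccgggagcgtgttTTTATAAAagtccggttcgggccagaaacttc
Ackr3, chr1:90203730-90203979, plus strand: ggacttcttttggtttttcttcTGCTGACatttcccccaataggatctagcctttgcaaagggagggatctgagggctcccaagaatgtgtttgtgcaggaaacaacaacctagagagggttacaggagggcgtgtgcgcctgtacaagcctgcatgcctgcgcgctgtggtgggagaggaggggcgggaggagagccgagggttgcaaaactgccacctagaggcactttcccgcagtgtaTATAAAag

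In the whole Sst window an NK2 core lay 146 to 140 bases before the RefSeq start. An ISL1 core at 96 to 91 bases and a cyclic AMP response element at 48 to 41 bases before that start fall inside the gene as GENCODE draws it, and are not printed. The full cyclic AMP response element was found in 1.55% of all 32851 promoter windows of the same length, the ISL1 core in 6.36% and the NK2 core in 10.1%. The Npy window held none of the 6 motifs. Cxcr4 had 2 overlapping matches to the TATA box, 1 on each strand, together 32 to 25 bases before the RefSeq start, and Ackr3 had 1 at 8 to 3 bases before it. A TATA box match occurred in 12.4% of the windows. The MAF half-site of Ackr3, 228 to 222 bases before the start, was of a kind found in 3.81% of windows. TAATTA was found in 4.84% of windows and in none of these 4. These matches describe letters only, and binding was not measured.

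The values are adjusted read values, which the authors scaled, adjusted and rounded, and the sequencing depth behind them is unknown. Their sums per library lay between 23732455 and 24456923, and these follow from the scaling. The dissection held the markers of striatal projection neurons, with all 14 of 14 listed genes measured. Bcl11b, a factor of these neurons, had a control level of 140 ± 6.39 RPKM (SD, n = 4). RPKM scales a value by gene length and library sum. Isl1 itself was higher in the libraries labelled cKO, at 4930, 5377, 5618 and 5971, than in the controls, at 3777, 3692, 4186 and 3517. The value covers the whole gene and no source used here gives the deleted part, so it does not check the labels. Each direction given here rests on the labels control and cKO as they stand. Control replicate 3 and cKO replicate 4 stood apart in 12 markers of pallial neurons, the cells of the overlying cortex. Their mean log2 level was 5.198 and 5.924, against 6.686 to 7.476 in the other 6 libraries. Of the 12 markers Bhlhe22 rose in the cKO (log2 fold change 2.61 ± 0.39, limma adjusted p = 0.00151), so this mean is not free of the genotype. The summed value of this list, which its abundant members dominate, was 8560 to 9189 in the controls and 8761 to 9665 in the cKO, and none of the 12 was at 0 throughout.

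Per gene length, the 9 members covered a wide range of levels. In the controls Npy stood at 57.5 ± 8.62 RPKM and Sst at 53.2 ± 10.02 RPKM (SD, n = 4), and the ranges of this pair of peptide genes overlapped. Cxcr4 followed at 22.6 ± 2.63 RPKM, below every control value of Sst and above every one of Ackr3. Ackr3 at 13.8 ± 1.97 RPKM and Nkx2-1 at 11.4 ± 1.32 RPKM overlapped each other. Maf at 8.20 ± 0.382 RPKM, Satb1 at 7.68 ± 0.444 and Sox6 at 6.71 ± 0.779 formed a run in which each range overlapped the next. Nos1 was lowest, at 1.71 ± 0.384 RPKM, below all control values of Sox6. Npy was thus above 92.2% of the genes tested in control level, and Nos1 above 26.0%. In the cKO the mean of Sst, 36.7 ± 6.49 RPKM, was above that of Npy, 34.9 ± 5.89 RPKM, and the ranges again overlapped. Lhx6, a factor of MGE interneurons, stood at 25.9 ± 2.08 RPKM in the controls and 22.8 ± 1.84 RPKM in the cKO (SD, n = 4).

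Of the 9 members, 3 fell in the cKO, which were Npy, Nos1 and Cxcr4, and 1 rose, Maf. The test was limma on log2(value + 1), with p-values adjusted over all genes by the Benjamini-Hochberg method and a threshold of 0.05. Among all 15698 genes tested, 6.66% passed, 3.78% as falls and 2.87% as rises. The median log2 fold change of the members was -0.04, against 0.01 over all genes tested, so the list as a whole had no common direction. The groups did not overlap for 3 members, Npy, Cxcr4 and Maf, where 12.7% of all genes tested had groups without overlap. The authors' deposited table gave the same directions and passed 5 members, the 4 above and Sst, against 6.55% of its 15705 genes. In bulk tissue, fewer cells of a type and less RNA per cell cannot be told apart.

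**Figure D1:**
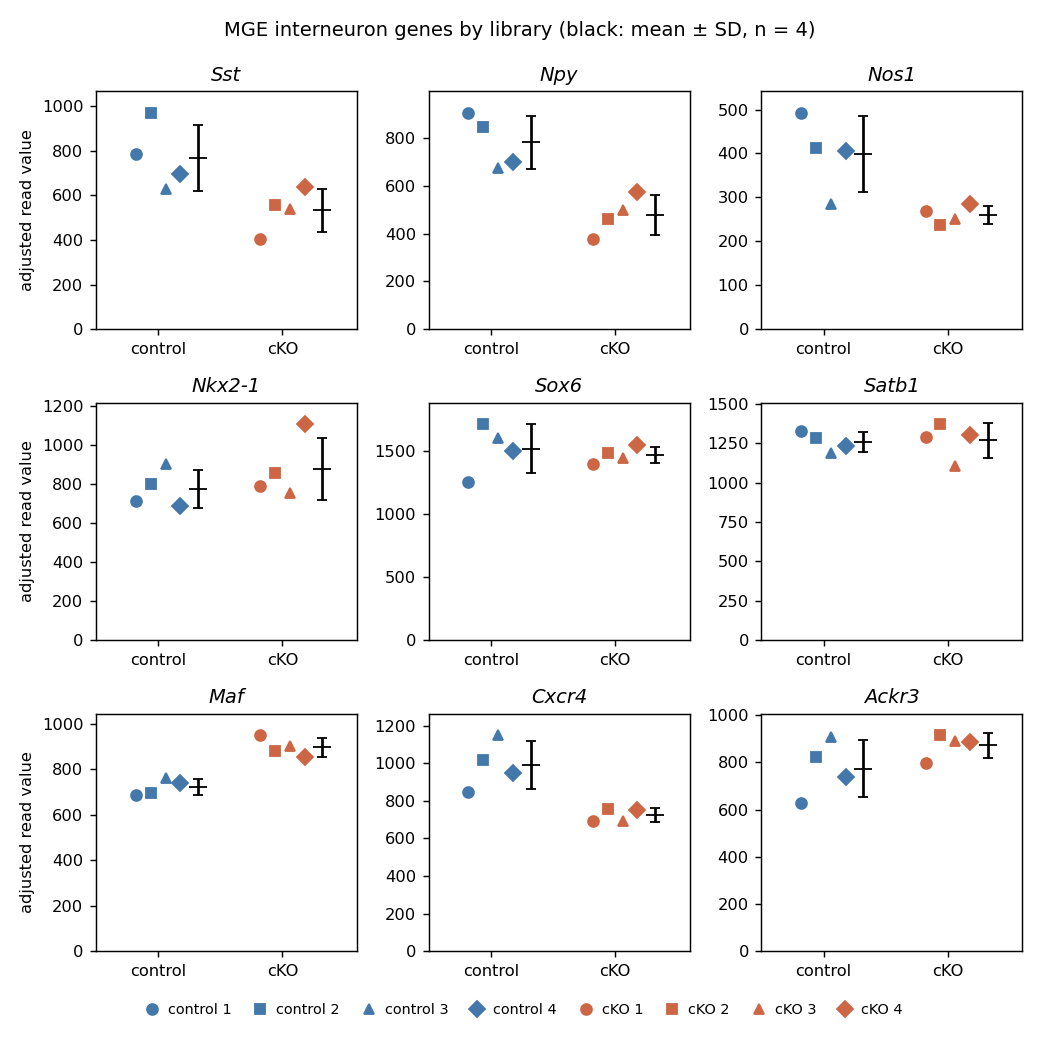
Adjusted read value (vertical axis, from 0) of the 9 members in the 4 control and 4 cKO libraries; each symbol shape is a replicate number and black bars are mean ± SD (n = 4). The cKO values of Npy lie between 377 and 576 and of Cxcr4 between 693 and 758, below every control value, and those of Maf lie between 853 and 949, above every control value.

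The peptide and enzyme genes were all lower on average in the cKO. Npy encodes neuropeptide Y, an inhibitory neuropeptide, and lies on chromosome 6, 49822710 to 49829507, plus strand (GRCm38). Its control values were 905, 847, 675 and 700 and its cKO values 377, 460, 498 and 576. The highest cKO library was below the lowest control library. The cKO mean was 0.611 of the control mean, a log2 fold change of -0.71 ± 0.13 (SE) with a limma adjusted p of 0.00495. This call held in all 20 alternative fits, with limma or authors' adjusted p of at most 0.0385.

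Sst, the gene of somatostatin, is on chromosome 16, 23889573 to 23890958, minus strand. Control libraries held 784, 970, 629 and 696, and cKO libraries 404, 558, 538 and 636. A single crossing kept the groups from separating, since cKO replicate 4 at 636 lay above control replicate 3 at 629. The log2 fold change of Sst was -0.53 ± 0.15 (SE), with a 95% interval from -0.85 to -0.21. It did not pass over all genes (limma adjusted p = 0.056), and it passed in 7 of 20 alternatives, whose adjusted p ranged from 0.0208 to 0.16.

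Nos1 encodes the neuronal nitric oxide synthase and is on chromosome 5, 117781032 to 117958840, plus strand. Its control values were 492, 412, 284 and 406, and its cKO values 268, 237, 251 and 285. Here too the overlap came from control replicate 3 and cKO replicate 4, which differed by 1. The cKO libraries were close together, with an SD of 20.8 against 85.8 in the controls. Nos1 fell by 0.59 ± 0.14 (SE) on the log2 scale with a limma adjusted p of 0.0265, and 7 of 20 alternatives lost the call. Those 7 included the fits without control replicate 1, 2 or 4 and without cKO replicate 2 or 3, with adjusted p between 0.0571 and 0.0818. An annotated antisense gene shares 2.40% of the exon bases of Nos1 and is not listed in the table, and although the library kit was directional, no source used here says whether the counting used strand, so reads of the pair may not be told apart.

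The same 2 libraries bounded all 3 genes. Control replicate 3 was the lowest control and cKO replicate 4 the highest cKO library for Sst, Npy and Nos1, and these were the libraries lowest in pallial markers. With both left out, the log2 fold changes were -0.71 for Sst, -0.88 for Npy and -0.79 for Nos1, and all 3 passed (limma adjusted p = 0.0343, 0.00499 and 0.00224). Since these were the lowest control and the highest cKO library of each gene, leaving them out had to enlarge the differences, and the larger values are no support for them. The summed value of 7 astroglial markers was also lower in the cKO, at 16034 to 16663 against 17084 to 18993 in the controls, without overlap. None of the 7 passed, and 1 was by itself lower without overlap, where 12.7% of all genes tested had groups without overlap. Of the 7, 6 had negative log2 fold changes, as had 47.6% of all genes tested, and none was at 0 throughout. The part of these marker levels in the values of Sst, Npy and Nos1 was not tested. For Cxcr4 control replicate 3 was instead the highest control library. Without both libraries the log2 fold changes of Cxcr4 and Maf were -0.39 and 0.36, and both passed (limma adjusted p = 0.0266 and 0.0094).

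**Figure D2:**
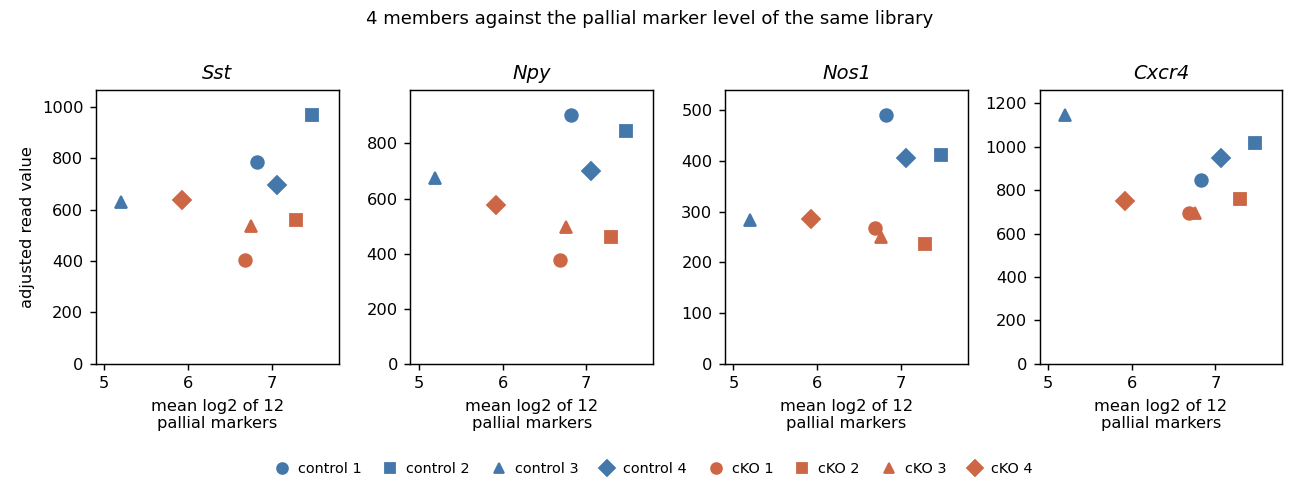
Adjusted read value (vertical axis) of Sst, Npy, Nos1 and Cxcr4 against the mean log2(value + 1) of 12 pallial neuron markers in the same library (horizontal axis), 1 point per library. The 2 points at the left of each panel are control replicate 3 (5.198) and cKO replicate 4 (5.924). For Nos1 these 2 stand at 284 and 285. The 12 markers include Bhlhe22, which rose in the cKO.

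The factors of the lineage did not follow the peptides. Nkx2-1, the homeodomain factor that specifies MGE progenitors, is on chromosome 12, 56531958 to 56536908, minus strand. Its control values were 713, 799, 906 and 689 and its cKO values 790, 858, 756 and 1108. The groups overlapped, cKO replicate 4 was the highest of the 8, and the log2 fold change of 0.17 ± 0.12 (SE) did not pass (limma adjusted p = 0.50, 95% interval -0.09 to 0.43). Sox6, an SRY-box factor that places and matures MGE interneurons, is on chromosome 7, 115470872 to 116038796, minus strand. Values of 1256, 1711, 1604 and 1499 in the controls enclosed those of the cKO, at 1392, 1479, 1444 and 1545. Its log2 fold change was -0.04, with a 95% interval from -0.22 to 0.13. Satb1, a chromatin organiser that promotes the somatostatin fate, is on chromosome 17, 51736187 to 51833290, minus strand. Control libraries held 1326, 1286, 1185 and 1232 and cKO libraries 1288, 1371, 1108 and 1305. The interval of its log2 fold change ran from -0.13 to 0.15, around 0.01, which leaves out changes of the size seen in Npy.

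Maf was the member that rose. It encodes a basic leucine zipper factor of MGE interneurons that macrophages also use, and lies on chromosome 8, 115682942 to 115707794, minus strand. The controls held 686, 695, 762 and 741 and the cKO 949, 879, 902 and 853. Every cKO library was above every control library, a log2 fold change of 0.31 ± 0.05 (SE) with a limma adjusted p of 0.00344, and the call held in all 20 alternatives. Markers of microglia, which also express Maf, moved with it. Of 12 microglial genes, 10 rose and none fell, where 2.87% of all genes tested rose and 3.78% fell. Their summed value was 2464 to 2730 in the controls and 3841 to 4604 in the cKO, with no marker at 0 throughout. The receptor gene Csf1r (log2 fold change 0.73 ± 0.08) and the complement genes C1qc (0.90 ± 0.10) and C1qa (0.91 ± 0.11) were among them. The part of microglia in the rise of Maf was not tested. An antisense gene that the table does not list shares 5.34% of the exon bases of Maf, with the same uncertainty.

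Of the 2 receptors of Cxcl12, Cxcr4 fell and Ackr3 did not pass. Cxcr4 is on chromosome 1, 128588199 to 128592293, minus strand. Its control values were 848, 1018, 1148 and 946 and its cKO values 693, 758, 694 and 751. No cKO library reached the lowest control, and the cKO were tightly grouped (SD 35.3, against 126 in the controls). Cxcr4 fell by 0.44 ± 0.08 (SE) on the log2 scale with a limma adjusted p of 0.00591, and it passed in all 20 alternatives. Ackr3, on the same chromosome at 90203980 to 90216751, plus strand, was at 628, 822, 907 and 737 in the controls and at 795, 914, 892 and 885 in the cKO. Those ranges overlapped, and the log2 fold change of 0.18 ± 0.10 did not pass (limma adjusted p = 0.352, 95% interval -0.03 to 0.40). Microglia and endothelium also express Cxcr4, and endothelium Ackr3. None of 15 vascular markers passed, with a summed value of 15980 to 16635 in the controls and 15847 to 19109 in the cKO and none at 0 throughout. The microglial list is given above. The part of microglia and endothelium in the values of Cxcr4 and Ackr3 was not tested.

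Within each library the difference of the receptors on the log2 scale does not depend on scaling between libraries. Cxcr4 minus Ackr3 was 0.433, 0.308, 0.340 and 0.360 in the controls. It was -0.198, -0.270, -0.362 and -0.237 in the cKO. These values are not scaled by gene length, so the sign of the difference does not give the order of the receptors. Per length, the cKO means were 16.4 ± 0.761 RPKM for Cxcr4 and 15.5 ± 0.923 RPKM for Ackr3 (SD, n = 4), with overlapping ranges. The change between the groups hardly depends on length. At -0.63 it was large beside the SDs of 0.05 and 0.07. An exact two-sided permutation test gave p = 0.0286, the smallest that 4 against 4 libraries allow, and p = 0.0619 after Benjamini-Hochberg adjustment over 13 gene pairs, which does not pass. At this number of pairs and libraries a single separated pair could not pass, and 6 of the 13 pairs were at the smallest p.

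Set against Lhx6, which marks the lineage as a whole, some members were lower and some higher in the cKO, and no difference passed. Lhx6 itself held 1997, 2372, 2446 and 2137 in the controls and 1880, 1943, 1867 and 2232 in the cKO, a log2 fold change of -0.18 ± 0.07 that did not pass (limma adjusted p = 0.215). Npy minus Lhx6 was -1.52 ± 0.30 in the controls and -2.06 ± 0.18 in the cKO (SD, n = 4), and Cxcr4 minus Lhx6 went from -1.18 ± 0.06 to -1.45 ± 0.09, both without overlap. Maf, Ackr3 and Nkx2-1 were separated in the other direction, by 0.49, 0.36 and 0.34. The lower mean of Lhx6 itself (-0.18) is part of each of these values, and Ackr3 and Nkx2-1 did not pass by themselves. Each of these 5 differences had an exact permutation p of 0.0286 and an adjusted p of 0.0619, so none passed. The differences to Lhx6 for Sst (-0.35), Nos1 (-0.41), Sox6 (0.13) and Satb1 (0.18) overlapped between groups. Lhx6 was the reference of 9 of the 13 pairs, which are therefore not independent. Npy minus Sst changed by -0.19 and Nos1 minus Sst by -0.06 (exact permutation p = 0.114 and 0.886), so a difference in response among the 3 was not detected with these libraries.

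**Figure D3:**
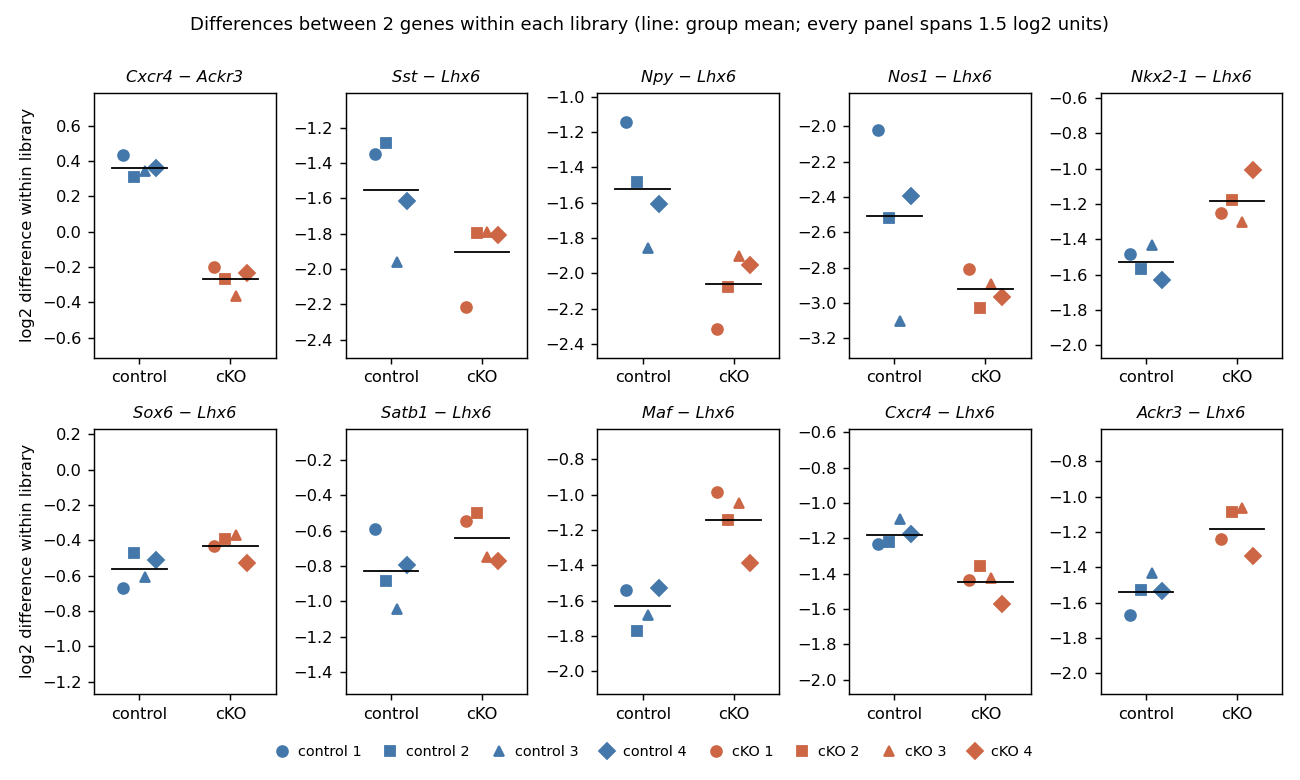
Difference of 2 genes on the log2(value + 1) scale within each library (vertical axis, each panel 1.5 log2 units high) for Cxcr4 minus Ackr3 and for the 9 members minus Lhx6, in 4 control and 4 cKO libraries with the group mean as a line. Cxcr4 minus Ackr3 spans 0.308 to 0.433 in the controls and -0.362 to -0.198 in the cKO. The values are not scaled by gene length, so the sign gives no order of the genes.

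Genes around the members were read from 6 lists of related genes with 82 of 84 entries in the table, all of them tested. Of these, 8 fell and 9 rose, at a median log2 fold change of 0.04. Over all genes tested, 3.78% fell and 2.87% rose, the shares to set beside the count of each list below. The count of falls was 5 without control replicate 4 and 3 without both libraries lowest in pallial markers, and the count of rises was 5 without control replicate 3 or 4 and 4 without both of the libraries named. Pvalb and Vip are not listed in the table. Of 16 other MGE lineage factors none fell and 2 rose, Dlx5 (0.24 ± 0.04) and Dlx6 (0.33 ± 0.07), homeodomain factors of all subpallial neurons. The rises were 1 without control replicate 1, cKO replicate 3 or cKO replicate 4, and 1 factor fell without control replicate 1 or cKO replicate 4. Zic1, a zinc finger factor, was at 355, 631, 384 and 423 in the controls and 209, 268, 316 and 332 in the cKO, without overlap, and its log2 fold change of -0.66 ± 0.18 did not pass (limma adjusted p = 0.0546). Lhx8, a LIM-homeodomain factor of the MGE, was at 246, 402, 285 and 239 against 142, 204, 166 and 313, which overlapped (-0.54 ± 0.23, limma adjusted p = 0.224). Of 14 other MGE interneuron markers 2 fell and 1 rose. Tacr1, the receptor gene for substance P, went from 205, 260, 201 and 223 to 74, 81, 74 and 82. That is a log2 fold change of -1.50 ± 0.10 (limma adjusted p = 5.00e-06), larger than that of any of the 9 members. Mef2c, an activity-dependent factor, fell by 0.29 ± 0.06 and the potassium channel gene Kcnc2 rose by 0.54 ± 0.13. The count of rises in that list was 0 when control replicate 3, control replicate 4, cKO replicate 1 or cKO replicate 4 was left out, and 2 without cKO replicate 3. Chodl, a marker of the interneurons with nitric oxide synthase, was at 78, 93, 55 and 80 in the controls. It was at 55, 53, 59 and 61 in the cKO, and did not pass (limma adjusted p = 0.199). Control replicate 3 was again the lowest control library.

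Of the 3 neuropeptide Y receptor genes listed, 2 fell. Npy1r, a Gi-coupled receptor, held 409, 503, 464 and 394 in the controls and 103, 108, 90 and 163 in the cKO, a log2 fold change of -1.95 ± 0.16 (limma adjusted p = 1.76e-05). Npy5r was at low values, 30, 29, 19 and 26 against 9, 15, 16 and 8, and fell by 1.09 ± 0.27 on the log2 scale (limma adjusted p = 0.0310). Npy2r did not pass, at -0.03 ± 0.22, and none of the 5 somatostatin receptor genes Sstr1 to Sstr5 passed. Among genes that process peptides, Pam, which amidates them, fell by 0.24 ± 0.06, and the convertase gene Pcsk2 rose by 0.21 ± 0.05. The subunits of soluble guanylate cyclase, the receptor of nitric oxide, went the opposite way to Nos1. Gucy1a3 (current symbol Gucy1a1) rose from 17257, 15867, 18464 and 17183 to 23622, 23028, 22249 and 21379, a log2 fold change of 0.39 ± 0.05 (limma adjusted p = 0.000458). Gucy1b3 (Gucy1b1) rose by 0.21 ± 0.05 and Gucy1a2 by 0.22 ± 0.05. In all, 3 of 18 peptide and nitric oxide genes fell and 4 rose. The falls were 1 without control replicate 1, 2 or 4 or cKO replicate 4. The rises were 1 without control replicate 3 or 4, and 2 without control replicate 2 or cKO replicate 3.

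Among 20 cues and receptors of interneuron migration, 2 fell and 1 rose. Cxcl14, a chemokine related to Cxcl12, went from 1343, 1083, 1119 and 1186 to 1971, 2170, 2358 and 1753, a log2 fold change of 0.80 ± 0.09 (limma adjusted p = 0.000197). Cxcl12, the ligand of both receptors above, was at 329, 286, 227 and 299 in the controls and 314, 229, 309 and 343 in the cKO, and its interval ran from -0.24 to 0.36. The Slit receptor genes Robo1 (-0.23 ± 0.05) and Robo2 (-0.25 ± 0.05) fell. The count of falls was 1 when control replicate 3, control replicate 4, cKO replicate 2 or cKO replicate 3 was left out, and 3 without cKO replicate 1. None of 5 genes of GABA synthesis and transport passed. All 5 log2 fold changes were positive, with a median of 0.07, where 47.6% of all genes tested had negative ones. The summed value was 33563 to 34618 in the cKO and 31243 to 32690 in the controls, without overlap. By itself each of the 5 overlapped between the groups, where 12.7% of all genes tested had groups without overlap. Of 9 markers of interneurons from the caudal ganglionic eminence, Reln, which encodes the extracellular protein reelin, fell by 1.34 ± 0.12 and Adarb2, a relative of RNA-editing enzymes, rose by 0.84 ± 0.06. Of the 17 related genes that passed, 7 did so in all 20 alternatives, namely Tacr1, Npy1r, Reln, Adarb2, Cxcl14, Gucy1a3 and Dlx5. The other 10 lost the call in at least 2 of them.

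**Figure D4:**
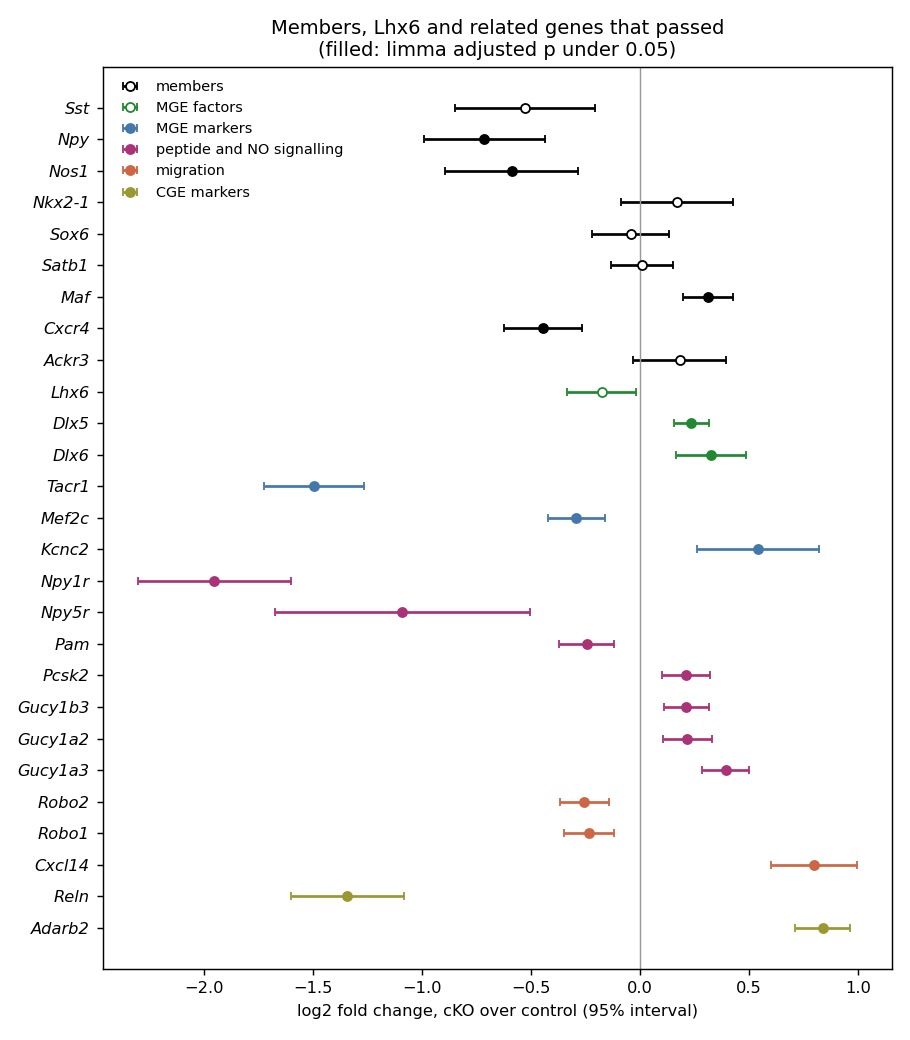
Log2 fold change of cKO over control with its 95% interval (horizontal axis) for the 9 members, Lhx6 and the 17 related genes that passed, coloured by list and filled where the limma adjusted p was under 0.05. Npy1r (-1.95), Tacr1 (-1.50) and Reln (-1.34) lie further from 0 than every member.

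Likeness of pattern was described by Pearson's r of log2(value + 1) over the 8 libraries among 11722 genes with a mean value of at least 100. The genes most like Sst were Thumpd2 (r = 0.987), Ralyl (0.986) and Gyg (0.983). For Npy they were Vwa5b2 (0.982), Col9a2 (0.979) and Nr4a1 (0.976), and for Nos1 they were Zfyve27 (0.991), Arrdc1 (0.985) and Prkacb (0.9746). All 9 had negative log2 fold changes, from -0.74 for Nr4a1 to -0.09 for Prkacb, and the 8 points of each share the libraries and the genotype groups. None of the 9 members was among the 3 genes most like Sst, Npy or Nos1, the only members searched.

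**Figure D5:**
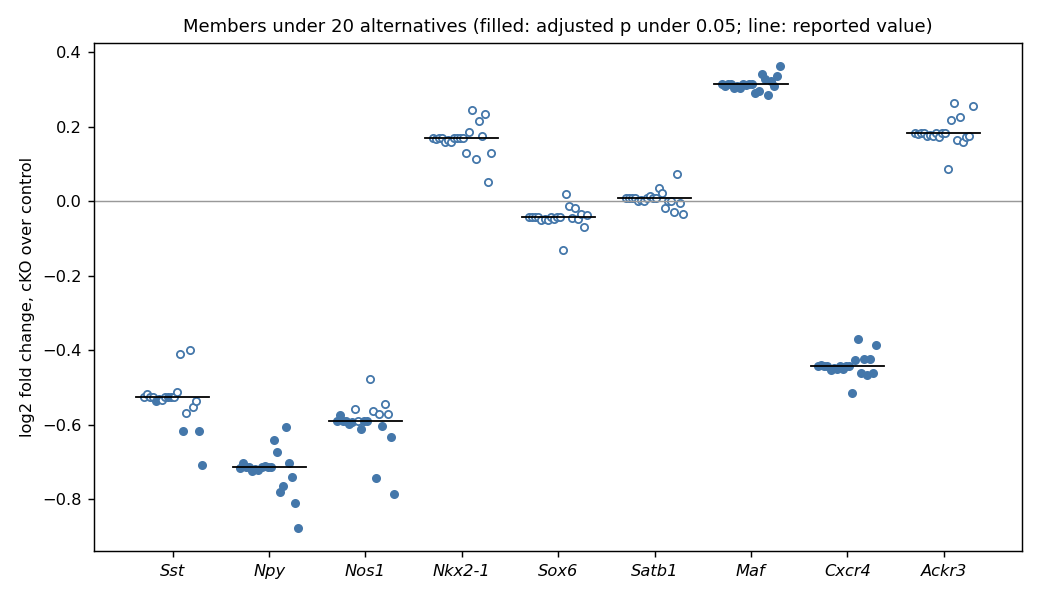
Log2 fold change (vertical axis) of the 9 members in 20 alternative fits, 1 point each, filled where the adjusted p was under 0.05, with the reported value as a line. Npy, Cxcr4 and Maf are filled in all 20, Nos1 in 13 and Sst in 7, and the other 4 in none.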

How the data were processed

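STAR, featureCounts, edgeR and build mm10 are named in the submitters' processing notes, without versions. The authors' deposited columns named as raw hold a score: the values had been scaled and adjusted before rounding. The upper quartiles lay within 0.677% of each other, and along 1 combination of the 8 libraries almost nothing varied (singular value 0.000241, next smallest 0.0433, over 5711 genes), which makes the printed SDs and SEs somewhat too small. The deposited RPKM columns are these values per library sum and gene length. The log2 fold changes and p-values that the authors deposited served as an alternative; their sign is that of cKO over control. No count model could be fitted.

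Values were analysed as log2(value + 1), keeping genes that reached 1 in 4 or more libraries (7 left out), using limma 3.58.1 with a mean trend in R 4.3.3. Trimmed-mean (TMM) factors were computed directly from the values. The procedure was tested on simulated data. Errors are SE of a fitted fold change or SD over 4 libraries. Folds on this scale understate changes of low genes. The libraries are separate samples by label. The limma p-values rest on the spread between them in the adjusted values, drawn towards a trend over all genes, and not on the full spread between embryos. Exact permutation tests enumerated 70 assignments and take libraries as exchangeable, which the removed direction breaks, so their p-values may be too small.

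The members and lists were chosen with earlier results of these data known. Named genes are the members, Isl1, Lhx6, the related genes that passed, up to 4 of each list of other cells, and 3 genes most like each of Sst, Npy and Nos1. Named outside the rule, after their values were seen, are Zic1, Lhx8, Chodl, Cxcl12, Npy2r, the Sstr genes and Bcl11b. Some genes of the lists, and 1 of the 13 gene pairs, are not reported here. Gene positions are from GENCODE M21 (GRCm38, which mm10 denotes). Lists of oligodendrocyte lineage (9 genes) and astroglial (7) markers had no gene that passed. That of pallial neurons had 1 rise of 12, and that of striatal projection neurons 4 falls and 3 rises of 14. The shares over all genes tested were 3.78% falls and 2.87% rises.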

Additional observations from a re-analysis of the deposited data

Results flagged for a closer look

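Of 82 sets of 4 libraries looked at for a library far from the others, 1 stood out, where chance gives about 1 in 20. For Sst minus Lhx6 on the log2 scale, cKO replicate 1 was at -2.216, while the other cKO libraries were at -1.798, -1.793 and -1.81. The gap to its nearest neighbour was 0.961 of the range, above the critical value of Dixon's test. Without this library the difference between the groups in Sst minus Lhx6 was -0.25, against -0.35 with it.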

How the results depend on the processing

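The calls of Npy, Cxcr4 and Maf held under all 20 alternatives, and those of Nkx2-1, Sox6, Satb1 and Ackr3 were absent under all 20. Leaving out 1 library gave 2 to 4 falling members and 1 rising member each time. Over all genes, leaving out 1 library gave 403 to 556 falls and 256 to 414 rises, the fewest rises without control replicate 4 (256) and cKO replicate 4 (287). Without control replicate 3 and cKO replicate 4 together there were 394 falls and 216 rises. With the missing direction as a covariate there were 290 rises. In the related lists, leaving out 1 library gave 5 to 8 falls and 5 to 9 rises. Both libraries left out gave 3 falls and 4 rises, limma without trend gave 3 and 4, and the RPKM columns gave 5 rises. The cause was not tested. Same-numbered libraries did not deviate together (r = 0.06, 0.13, -0.05 and -0.49 for numbers 1 to 4). Since a direction of the libraries had been removed from the values, this cannot exclude that the numbers pair them. With the replicate block, 4 members fell and 1 rose, Sst being added at a limma adjusted p of 0.0208. In that fit 1199 genes passed in place of 1045. Sst also passed with TMM scaling (0.0472), with median-of-ratios scaling (0.0477), without control replicate 3 (0.0422) and without cKO replicate 4 (0.0441). Nos1 was lost with the RPKM columns (0.067) and with limma without trend (0.092). The depth of the libraries is unknown, so counting error could not be given.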
